A study of Rattus norvegicus with 20 samples.

Results

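Slc26a4 (array identifier ILMN_1372403) codes for pendrin and is described here in rat lung. It is 1 of the 21792 genes of the deposited intensity table, where it stands under the symbol SLC26A4. It was selected on its intensities in silica and air lungs on these same arrays, so that difference is given as a description, with no test. Lung RNA of 20 male rats of the inbred strain labelled CDF Fisher 344, aged 3 months, was hybridised to Illumina bead arrays, 1 array per rat. The 8 silica rats (identifiers 81 to 88) had inhaled crystalline silica, a mineral dust, at 15 mg/m3 for 6 h a day on 5 days, and their lungs were collected 16 h after exposure ended. The 12 air rats were controls at 0 mg/m3 of silica, on the same schedule of 6 h a day on 5 days. Their lungs were also collected 16 h after exposure ended. Their identifiers form 3 runs (89 to 92, 105 to 108 and 137 to 140), and the labels do not call these runs batches. No allele, transgene or other agent is named for any group. The labels identify each array by a separate rat.

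Pendrin sits in the cell membrane and exchanges chloride for bicarbonate, iodide or thiocyanate. It is best known from the thyroid, where it passes iodide to the follicle lumen, from the inner ear and from intercalated cells of the kidney. In airway epithelium its transcript is known to respond to interleukins 4, 13 and 17, and thiocyanate that it delivers to the airway surface serves peroxidases that work with hydrogen peroxide from the Duox enzymes. In the rat assembly GRCr8 the gene lies on chromosome 6, from 53835102 to 53873968, on the minus strand, a span of 38867 bp. Where the array's probe lies within the gene was not analysed here.

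Across arrays the median intensity was 67.0 to 98.6, between 9434 and 10840 genes were detected, and the median gene had 40 to 43 beads. The number of arrays limits the precision of every comparison. Correlations between pairs of arrays, taken across genes, which are not independent replicates, were 0.978 to 0.996. Lung markers were bright: the club cell secretoglobin Scgb1a1 had a mean log2 intensity of 14.28 in silica and 14.27 in air lungs, and the surfactant gene Sftpc had 14.10 in silica and 14.06 in air lungs.

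All 8 silica lungs had a high Slc26a4 intensity, and no air lung reached the lowest of them. As deposited, before any correction, the silica rats had 1352, 1009, 1503, 1279, 1132, 1242, 1177 and 1115 intensity units in the order of their identifiers 81 to 88. The air rats 89 to 92 had 232, 128, 471 and 314 units. The air rats 105 to 108 had 306, 174, 321 and 75.9 units, and the air rats 137 to 140 had 197, 198, 202 and 152 units. The silica values lay within a 1.49-fold range, whereas the highest air value was 6.21 times the lowest. Rat 82 was lowest in silica and rat 108 lowest in air, while rat 83 was highest in silica and rat 91 highest in air.

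Slc26a4 was detected (detection p under 0.01) on 8 of 8 silica and 12 of 12 air arrays. Its intensity was 17.2 to 25.6 times the inferred mean of the negative controls in silica and 1.46 to 8.75 times in air. The dimmest air array, that of rat 108, was therefore close to background. Between 41 and 58 beads in silica and between 27 and 55 in air carried the probe, with a bead standard error of 2.10 to 3.23% of the intensity in silica and 2.36 to 4.72% in air.

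**Figure D1:**
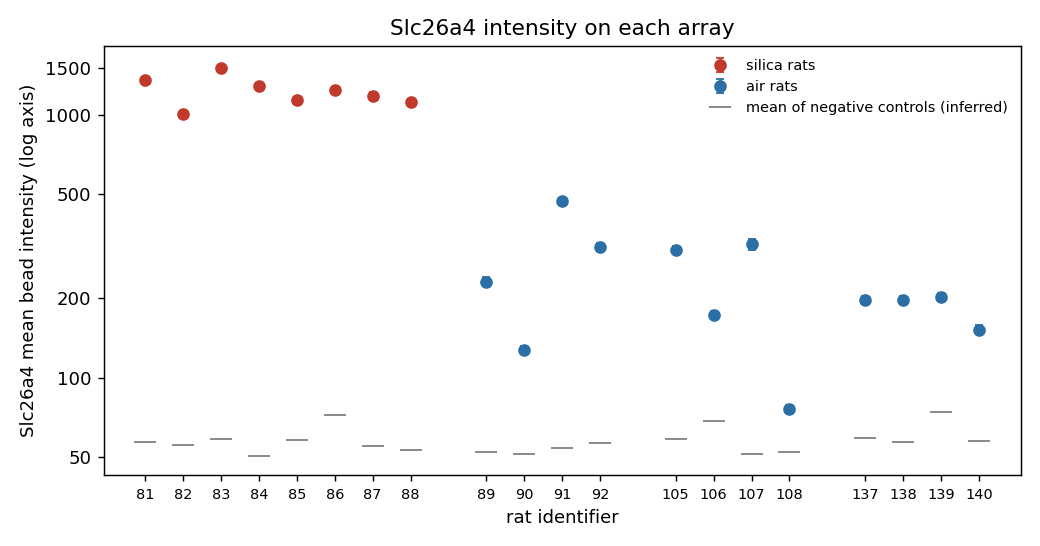
Slc26a4 mean bead intensity as deposited (log axis) for each rat, with bars for the bead standard error, silica rats first and then the 3 runs of air rats. Grey dashes give the inferred mean of the negative controls. The silica arrays lie between 1009 and 1503 units, above every air array, and the air arrays spread from 75.9 to 471 units.

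After background correction and quantile normalization, Slc26a4 averaged 10.23 ± 0.29 log2 units in silica lungs (SD, n = 8; lowest 9.60, median 10.24, highest 10.54) and 7.32 ± 0.95 in air lungs (SD, n = 12; lowest 5.45, median 7.40, highest 8.82). The difference, silica minus air, was 2.91 ± 0.31 (SE of the fit across all genes), or 7.53-fold. Against all 12 air rats it was the largest rise among the 10488 genes tested. Against rats 89 to 92 alone it ranked 2, at 2.54, after Cxcl6, at 2.61. The lowest silica array exceeded the highest air array by 0.78 log2 units, or 1.72-fold. On these arrays of whole lung, more cells of a type and more RNA per cell cannot be told apart, nor can fewer cells and less RNA per cell.

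Each run of air rats was lower than silica. The runs averaged 7.70 ± 1.06 (rats 89 to 92), 7.09 ± 1.34 (rats 105 to 108) and 7.18 ± 0.37 (rats 137 to 140; SD, n = 4 each), and their order did not exceed their spread. Silica minus air was 2.54 against rats 89 to 92, 3.14 against rats 105 to 108 and 3.06 against rats 137 to 140. These values share the silica arrays. Among the air rats alone, the limma moderated F test over the 3 runs gave Slc26a4 an adjusted p of 0.848. That test called 17 of 10488 genes, 0.162%. All silica rats belong to 1 run of identifiers, so a difference between runs and the exposure cannot be told apart for that group.

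Slc26a4 varied widely among control animals. Its SD among air rats, 0.95 log2 units, was rank 33 of 10488 tested genes, where the median gene had an SD of 0.15. Only 0.305% of tested genes had a larger one. Among silica rats its SD of 0.29 was rank 637, against a median gene at 0.13, and 6.06% of tested genes had a larger one. The air SD was 3.32 times the silica SD. With limma's default call the SDs were 0.32 in silica and 0.47 in air (ratio 1.47, rank 51 in air), and from the authors' deposited log2 values they were 0.27 in silica and 0.59 in air (ratio 2.15, rank 24 in air). Without rat 82 the silica SD was 0.14. By mean level Slc26a4 was rank 1831 of the tested genes in silica and rank 6308 in air, where probes differ in brightness and ranks between genes are only a guide.

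No other Slc26 anion transporter was called higher in silica lungs. Of 10 family members in the table, 5 were tested: none rose, 1 fell and 4 did not pass the test. Over all tested genes, 24.5% were called, 11.7% higher and 12.7% lower in silica. The median silica minus air difference of the 5 was 0.05, against -0.02 over all tested genes. Slc26a8, known from sperm, fell by 0.24 ± 0.08 (limma, adjusted p = 0.0311), at 5.30 ± 0.19 in silica and 5.54 ± 0.15 in air lungs, but it was detected on 4 of 8 silica and 10 of 12 air arrays. The fall was not called against rats 89 to 92 alone (adjusted p = 0.338) or with arrays scaled to a common median. Slc26a6, a chloride-bicarbonate and oxalate exchanger, was the brightest of them, at 7.92 ± 0.19 in silica and 7.87 ± 0.20 in air lungs (adjusted p = 0.727).

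The differences of Slc26a3, a chloride-bicarbonate exchanger of the gut, Slc26a9, a chloride channel of airway and stomach, and Slc26a11 were -0.04, 0.11 and 0.18 (adjusted p = 0.831, 0.465 and 0.146). Slc26a1, Slc26a2, Slc26a5 (prestin of the outer hair cells), Slc26a7 and Slc26a10 were not detected on any array. Within air rats the 5 tested members had r with Slc26a4 between -0.52 and 0.24. Among all solute carriers in the table, 171 besides Slc26a4 were tested, of which 35 rose and 15 fell. That was 29.2% called, against 24.5% of all tested genes.

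**Figure D2:**
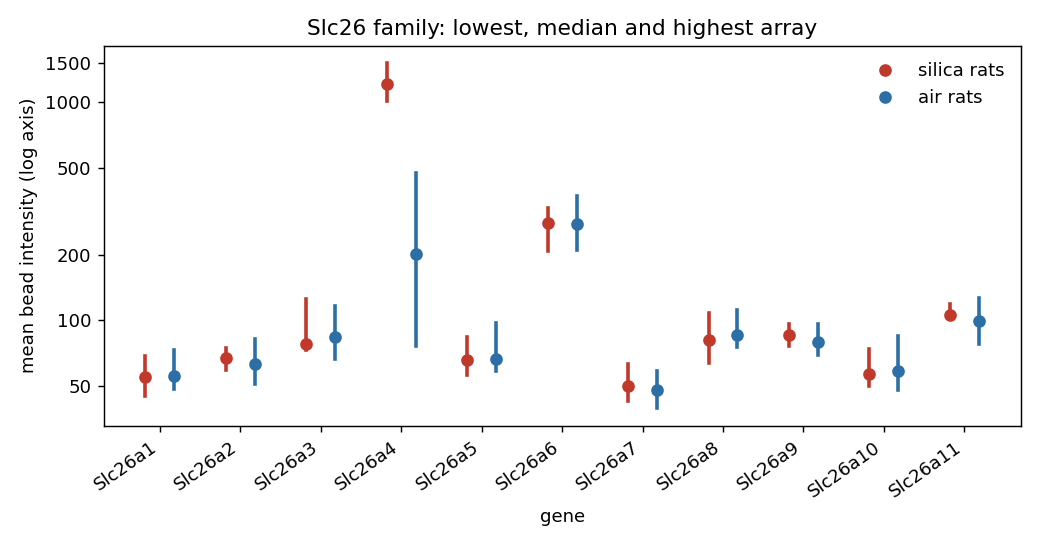
Mean bead intensity (log axis) of the Slc26 family, with the point at the median array and the line from the lowest to the highest array of the silica rats (left of each pair) and the air rats (right). Only for Slc26a4 do the lines of silica, 1009 to 1503 units, and air, 75.9 to 471 units, lie apart.

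Partners of pendrin in chloride and bicarbonate transport differed by small amounts in either direction. Of 15 tested genes of this list, 3 rose, 2 fell and 10 did not pass, with a median difference of 0.05. The sodium-bicarbonate cotransporter Slc4a4 rose by 0.33 ± 0.09 (limma, adjusted p = 0.0115). Carbonic anhydrase 4, Car4, which makes bicarbonate at the cell surface, fell by 0.27 ± 0.04 (adjusted p = 6.8e-05), and the anion exchanger Slc4a3 fell by 0.31 ± 0.10 (adjusted p = 0.0233). Against rats 89 to 92 alone, where 6.18% of tested genes were called, only the fall of Car4 was called in this list, and with median scaling Slc4a3 was not called. The chloride channel Cftr was detected on 2 of 8 silica and 0 of 12 air arrays and was not tested.

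In the list of peroxide and halide handling, 3 of 10 genes were tested and 1 rose. Cyba, the shared membrane subunit of NADPH oxidases, rose by 0.44 ± 0.06, at 13.04 ± 0.08 in silica and 12.60 ± 0.16 in air lungs. Duox1, which makes hydrogen peroxide at the airway surface, had a difference of 0.22 ± 0.09 (limma, adjusted p = 0.0908), at 7.42 ± 0.19 in silica and 7.20 ± 0.23 in air lungs. Duox2 was detected on 1 of 8 silica and 0 of 12 air arrays, and the airway peroxidase Lpo on 2 of 8 and 1 of 12.

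Markers of the tissues best known for pendrin were largely at background. The list members at 0 arrays are named here beyond the rule for named genes, because they define those cells. Of 7 thyroid markers, 2 were tested and none was called. Pax8, Foxe1 and Calca were not detected on any array, and thyroglobulin (Tg) was detected on 3 of 8 silica and 9 of 12 air arrays with a difference of -0.21 (adjusted p = 0.0854). Of 11 markers of ionocytes and intercalated cells, 5 were tested, 2 rose and 3 did not pass. The mean log2 level of the 5 ranged from 7.15 to 7.34 in silica and from 6.70 to 7.31 in air lungs. Their defining transcription factor Foxi1 and the pump and channel subunits Atp6v1b1, Atp6v1g3 and Bsnd were not detected on any array. Atp6v0d2 was among the 2 that rose, by 1.46 ± 0.24 (limma, adjusted p = 0.000115), and with median scaling 1 gene of this list was called.

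Genes of the interleukin pathways known to act on Slc26a4 were read as 2 lists, and the difference between the lists was not tested. In the interleukin 17 list, 11 of 15 tested genes rose and none fell, with a median difference of 0.54. Against rats 89 to 92 alone, 8 of the 15 rose, where 3.76% of tested genes rose. The neutrophil chemokine Cxcl6 averaged 7.61 ± 0.47 in silica and 4.81 ± 0.28 in air lungs, where it was detected on 1 of 12 arrays. Lcn2, which binds bacterial siderophores, averaged 9.72 ± 0.17 in silica and 7.24 ± 0.66 in air lungs, a 5.56-fold rise. The neutrophil chemokine Cxcl1 rose 3.49-fold, and the growth factor Csf2, detected on 8 of 8 silica and 5 of 12 air arrays, rose 1.61-fold. Cxcl6 and Csf2 met the detection filter only with their silica arrays, so their place in the count is no independent support.

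In the interleukin 4 and 13 list, 3 of 14 tested genes rose, 2 fell and 9 did not pass, with a median difference of 0.15. Il4 and Il13 themselves were not detected on any array. Arginase 1 (Arg1) rose 2.06-fold, the macrophage product Retnla 2.39-fold and the chemokine Ccl17 1.61-fold. The lipoxygenase Alox15 fell by 1.35 ± 0.12, at 7.86 ± 0.25 in silica and 9.21 ± 0.32 in air lungs. The fall of Postn, a matrix protein, was 0.28 ± 0.05 on the log2 scale.

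Markers of inflammatory cells were higher in the same lungs. Of the tested neutrophil markers 7 of 12 rose and none fell, and of the macrophage markers 4 of 5 rose and none fell. The macrophage markers' mean log2 level ranged from 10.02 to 10.28 in silica and from 8.78 to 9.75 in air lungs. The neutrophil markers' ranged from 7.68 to 8.07 in silica and from 6.98 to 7.41 in air lungs. Neither overlapped, nor did the interleukin 17 list, at 9.42 to 9.76 in silica and 8.46 to 9.09 in air lungs. That list shares members such as Lcn2 with the neutrophil list. The share of all tested genes without overlap is not given here. The neutrophil receptor Il1r2 rose 2.47-fold, and the neutrophil surface protein Cd177 rose 6.50-fold. Trem1, a receptor of myeloid cells, rose by 0.59 ± 0.08 on the log2 scale. Of the macrophage genes, Chi3l1 rose 2.16-fold, the lysosomal protein Cd68 rose 1.89-fold and the mannose receptor Mrc1 rose 1.29-fold. Mrc1 was not called against rats 89 to 92 alone (limma, adjusted p = 0.183).

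Markers of the airway and alveolar wall moved in either direction. None of 6 club and goblet cell markers and none of 3 basal cell markers was called, and Bpifa1, a secreted airway protein, varied widely, at 8.16 ± 1.36 in silica and 6.49 ± 1.89 in air lungs (limma, adjusted p = 0.0764). The basal keratin Krt15 had an adjusted p of 0.304. Of 7 ciliated cell markers 1 fell, Tppp3, by 0.31 ± 0.05. Of 8 type 2 cell markers 4 rose (Sftpd by 0.58, Lamp3 by 0.34, Abca3 by 0.26 and Napsa by 0.25), and of 7 type 1 cell markers 3 fell (Clic5 by 0.26, Aqp5 by 0.21 and Ager by 0.20). With median scaling Abca3, Napsa, Aqp5 and Ager were not called. Against rats 89 to 92 alone Sftpd, Abca3 and Aqp5 were not called (limma, adjusted p = 0.0529, 0.0785 and 0.0848). The part of any of these cells in the level of Slc26a4 was not tested.

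The level of Slc26a4 in each rat was then related to 21 chosen genes, most of them inflammatory, within each group. Of these 18 were tested, 36 tests in all. Within silica rats, where Slc26a4 spread less, 1 of the 18 was called on r. Cd177 had r = 0.780 and rho = 0.905 over 8 rats (exact permutation test, adjusted p = 0.0298 for r) and 0.955 without rats 82 and 83 (adjusted p = 0.0205, exact). Without rat 82 alone its r was 0.827 and it was not called (adjusted p = 0.0694, exact permutation test), nor was it with median scaling (r = 0.668). Sod2 had r = 0.771 and Lcn2 r = 0.769 (exact permutation test, adjusted p = 0.0685 and 0.137), and Mmp12 had r = 0.516. By rho both Sod2 (rho = 0.929) and Cd177 were called (exact permutation test, adjusted p = 0.0116 and 0.0164). Without rat 82 the rho of Sod2 was 0.893. Of the 18 genes, 15 had a positive r. Whether a relation differed between the groups was not tested.

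Among air rats Slc26a4 varied together with several inflammatory genes, but not with most neutrophil markers: of the 12 tested, 9 had a negative r, with a median of -0.245. Of the 18 chosen genes, 13 were called among air rats, 12 of them positive, at an absolute r of 0.661 or more. Over all other tested genes 4.43% had an r of that size. An r over 0.8 was seen for 8 of the 18, against 1.18% of all other tested genes. The macrophage elastase Mmp12 was the closest of them, with r = 0.965 and rho = 0.972 over 12 air rats (permutation test, adjusted p = 0.00036 for r). Rat 91, the highest air rat for Slc26a4, was also the highest air rat for Mmp12, at 9.47, and rat 108 was the lowest for both, at 6.66 for Mmp12. In silica lungs Mmp12 was between 9.99 and 10.94, above every air rat.

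Noxo1, the organiser subunit of an NADPH oxidase, had r = 0.948 and rho = 0.930 within air rats, and rat 91 had 8.03 and rat 108 had 6.52. The neutrophil chemokine Cxcl2 had r = 0.930 and Lcn2 r = 0.911. Then came Cd177 with r = 0.861, the monocyte chemokine Ccl2 with 0.836, Duox1 with 0.827, the oxysterol enzyme Ch25h with 0.811 and the mitochondrial superoxide dismutase Sod2 with 0.793. Cxcl1 had 0.708 and haptoglobin (Hp) 0.661. Cxcl6, with 0.747, was detected only in rat 91 of the 12 air rats, so its r is between values at background and is read no further. Alox15 was the negative one, at r = -0.701, with rho = -0.441. The adjusted permutation p of these 13 for r was at most 0.0492. By rho 9 of the 13 were called, and Cxcl1 (rho = 0.678), Hp (0.524), Sod2 (0.608) and Alox15 were not.

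The other tested genes were not called among air rats. The monocyte chemokine Ccl7 had r = 0.574, Il1b 0.311 and the chemokine Ccl20 -0.08. Scgb1a1 had r = -0.06 and Sftpc -0.05, the brightest markers of club and type 2 cells. Duoxa1 and Cftr were too dim to test, and Foxj1 was not analysed here.

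Part of these relations rests on rats 91 and 108. Without them 6 genes were called: Mmp12 (r = 0.945), Cxcl2 (0.921), Noxo1 (0.917), Lcn2 (0.830), Ccl2 (0.795) and Cxcl6, which was at background on all of those arrays. Duox1 then had r = 0.532, Cxcl1 0.314, Hp 0.326 and Alox15 -0.112, and these were not called, nor were Cd177 (0.749), Ch25h (0.647) and Sod2 (0.650). With values centred on each run of identifiers, 12 genes were called by permutation within runs. Among them were Mmp12 with r = 0.967 and Lcn2 with r = 0.912. Cxcl1 and Alox15 were no longer called and Ccl7 (r = 0.765) was. Across air rats Slc26a4 had r = -0.19 with the array's median intensity, -0.14 with the number of genes detected and -0.11 with the control mean. Across silica rats these r were -0.32, 0.01 and -0.12. None was called (permutation test, 6 tests over both groups, lowest adjusted p = 0.878). Without silica rats 82 and 83 they were -0.783, 0.657 and -0.720, also not called (exact permutation test, lowest adjusted p = 0.142).

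**Figure D3:**
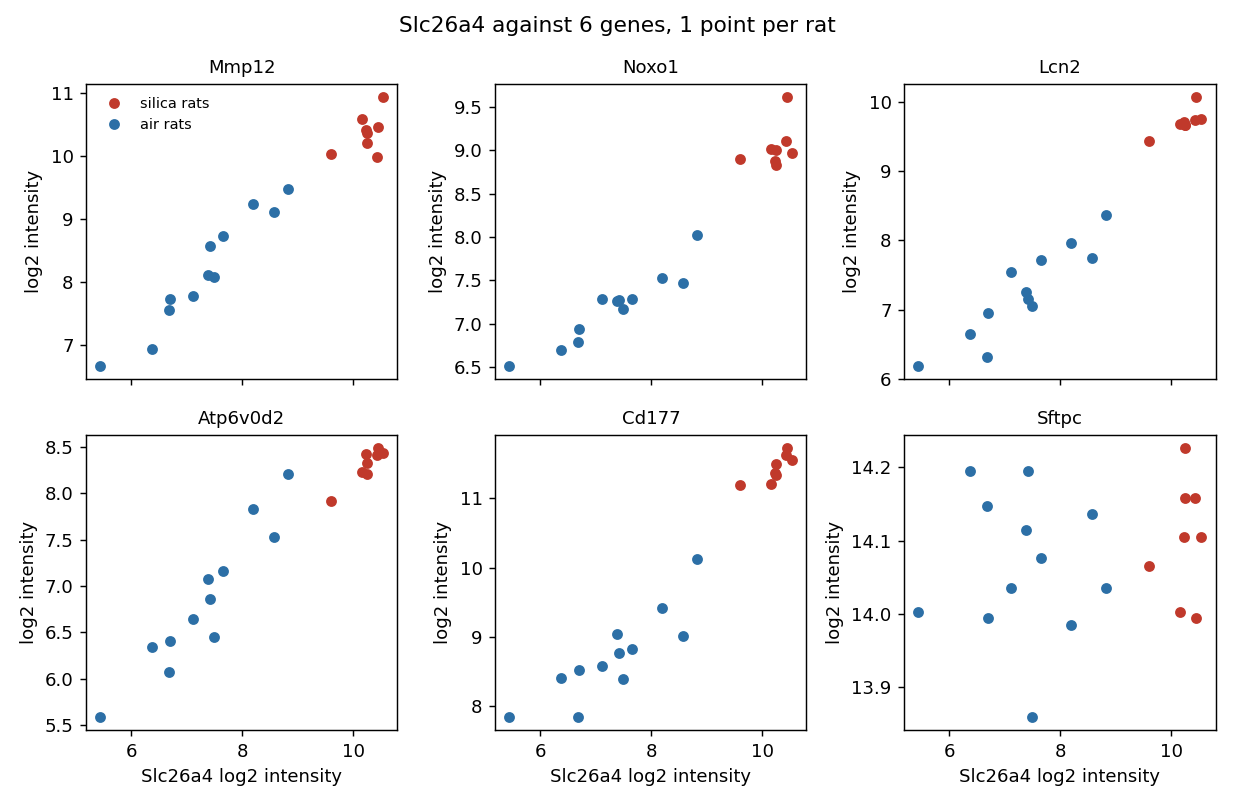
Log2 intensity of 6 genes against that of Slc26a4, 1 point per rat, silica rats in red and air rats in blue. Within air rats Mmp12 (r = 0.965), Noxo1 (0.948), Lcn2 (0.911), Atp6v0d2 (0.943) and Cd177 (0.861) lie along a line, and Sftpc (r = -0.05) does not.

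Mean levels of the gene lists were also related to Slc26a4, a choice made after the data had been seen (28 tests). No list was called within silica rats (lowest adjusted p = 0.132, exact permutation test). Among air rats the macrophage list had r = 0.938 (permutation test, adjusted p = 0.00028), the type 2 cell list 0.907 (0.00168), the interleukin 17 list 0.854 and the ionocyte list 0.854 (0.00434 each), and the basal cell list -0.808 (0.00857). The median r of the members was 0.817 in the macrophage list, where Adgre1 had -0.300, and 0.541 in the type 2 list, where Sftpc had -0.05 and Abca3 0.09. A list's r therefore does not stand for each of its members. The ionocyte value rests on Atp6v0d2, since the median r of its 5 members was 0.118. In the basal list the member farthest from 0 was Krt14 (r = -0.642), named after its values were seen and detected on 5 of 12 air arrays, while Krt15 had -0.225. The neutrophil list had r = 0.488 and the interleukin 4 and 13 list 0.281, neither called. Without rats 91 and 108 the macrophage list (r = 0.902, adjusted p = 0.0101, permutation test) was the 1 list still called.

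The genes whose pattern was most like that of Slc26a4 were ranked by the smaller of the r in silica rats and the r in air rats, so the difference between groups does not enter. First was Atp6v0d2, a subunit of the vacuolar proton pump that is abundant in osteoclasts and macrophages, with r = 0.931 in 8 silica and 0.943 in 12 air rats. It averaged 8.30 ± 0.19 in silica and 6.85 ± 0.75 in air lungs. Rat 82 was lowest of the silica rats for both genes, at 7.92 for Atp6v0d2, and rat 91, at 8.20, reached into the silica range. It was the 1 gene among the top 6 of both groups.

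The complement regulator C4bpa followed (r = 0.880 in silica and 0.867 in air rats), at 10.65 ± 0.22 in silica and 9.37 ± 0.42 in air lungs. Cathepsin K (Ctsk), a lysosomal protease, had r = 0.857 in silica and 0.947 in air rats. A gene listed as AKR1C18 and matched to Akr1c3 by a synonym had 0.862 in silica and 0.847 in air rats. Its difference between groups was not called, at 6.30 ± 0.27 in silica and 6.33 ± 0.83 in air lungs (limma, adjusted p = 0.945). Enpp2, the secreted enzyme autotaxin, had 0.918 in silica and 0.839 in air rats, and the endolysosomal channel Mcoln3 had 0.83 in silica and 0.86 in air rats. The Rac activator Tiam1 had 0.819 in silica and 0.929 in air rats, and Retnla 0.773 in silica and 0.899 in air rats.

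Without rat 82 the silica r of Atp6v0d2 was 0.738, of C4bpa 0.876, of Ctsk 0.934, of Enpp2 0.782 and of Mcoln3 0.738. For Tiam1 it was 0.547, for Retnla 0.516 and for Akr1c3 0.442. These r values chose the genes and carry no test.

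Within silica rats alone, the closest were Me1, the cytosolic malic enzyme (r = 0.958), Crbn, a ubiquitin ligase receptor (0.948), the kinase Lrrk2 (0.935), the matrix protein Fbln1 (0.934), Atp6v0d2 (0.931) and Mrc1 (0.924). In air rats their r was 0.284 for Me1, -0.180 for Crbn, 0.499 for Lrrk2, -0.504 for Fbln1 and 0.559 for Mrc1. An absolute r over 0.8 is common with 8 arrays: within silica rats 171 genes reached it with Slc26a4, where the median tested gene had 270 such partners. Within air rats Slc26a4 had 142, where the median gene had 45 and 12.2% of genes had more.

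Within air rats alone, the closest gene was Spp1, osteopontin, with r = 0.290 in silica but 0.973 in air rats. Spp1 itself was not called between groups: it averaged 7.89 ± 0.41 in silica and 7.16 ± 0.97 in air lungs, with overlapping ranges of 7.49 to 8.83 in silica and 5.56 to 8.65 in air (limma, adjusted p = 0.102). Mmp12, Noxo1, Ctsk, Atp6v0d2 and the homeobox gene Meis3 (r = 0.619 in silica, 0.941 in air rats) completed the top 6.

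A wider set showed partial carry-over. Of the 100 genes with the highest r in air rats (0.819 or more), 82 had a positive r in silica rats, with a median of 0.385. Over all tested genes 48.8% were positive, with a median of -0.01. Without rat 82 the median r of the 100 was 0.462 and of all genes 0.062. In silica lungs 72 of the 100 were called higher than in air lungs and 1 was called lower. Over all tested genes 11.7% were called higher and 12.7% lower. Of the 100 genes with the lowest r in air rats, 3 were called higher and 27 were called lower. The air arrays that chose these sets are also the reference of this contrast. Genes in these sets are not independent of each other.

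**Figure D4:**
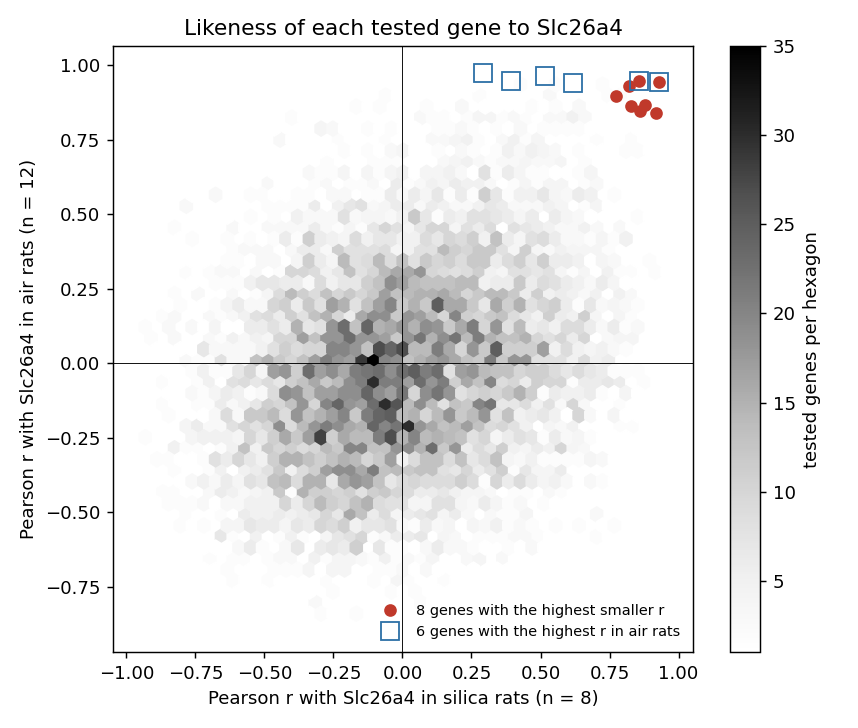
Pearson r with Slc26a4 in silica rats (x axis, n = 8) and in air rats (y axis, n = 12) for each tested gene, shaded by the number of genes per hexagon. The 8 genes with the highest smaller r lie at the upper right, and Spp1, with 0.290 in silica and 0.973 in air rats, is the leftmost of the squares.

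Promoter windows of RefSeq (GRCr8) run from 250 bases before to 50 after a listed start site. After the data had been seen, 1 window per gene was searched in Slc26a4 and the 8 most alike genes, for 5 motifs. These were letters bound by STAT6 (TTC and GAA with 4 bases between), by STAT factors (TTCNNNGAA), by AP-1 (TGANTCA) and by FOX factors (TGTTTAC), and the NF-kB motif, on both strands. The window of Slc26a4, on chromosome 6 from 53873167 to 53873466 on the minus strand, held none of them. It has a GC content of 67.0% and lies wholly inside the gene's annotated span, which on this strand starts at 53873968. The bases before that annotated start were not searched. No match says only that these letters are not in that window. Of the 8 genes, 6 had a window. The AP-1 letters, present in 7.33% of 33469 windows, stood in 3 of them, and the stretches below are shown because these were the letters found in more than 1 of the alike genes. Capitals mark the motif. The pattern TGANTCA matches on both strands at once, but the middle base differs between the strands. Each stretch is written in the direction of its gene.
Mcoln3 (chr2:237668963-237668992, plus strand): gccccaaggaaTGAGTCAtaagtcacaata
Tiam1 (chr11:42646158-42646187, minus strand): ctcaagcttccTGATTCAccttacgttgac
Tiam1 (chr11:42646137-42646166, minus strand): tacgttgacatTGAGTCAacgaacatgcat
Retnla (chr11:65426321-65426350, minus strand): tgagattctggTGAGTCAgtcagctctgta
The window matched to Akr1c3 held the STAT6 and NF-kB letters, present in 7.28% and 4.18% of all windows, and the other STAT and FOX letters, present in 8.87% and 3.78%, were in none of the windows searched. C4bpa and Ctsk held none of the 5 motifs, and Atp6v0d2 and Enpp2 were not matched. A match is a description of letters, not a site.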

How the data were processed

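Lung RNA of 20 rats was measured on bead arrays. The table of intensities was deposited as BeadStudio summaries, per the submitters' processing notes, which also name lumi and limma. Judged from the values, these intensities were neither background-subtracted nor normalized. The authors also deposited a detection p-value, a bead standard error in intensity units and a bead number per gene and array. A second table deposited by the authors holds normalized log2 values of 12763 genes and was an alternative.

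With limma 3.58.1 in R 4.3.3, intensities were corrected by normexp (offset 16) and quantile-normalized as log2. The controls' mean and SD were inferred from detection p-values, leaving out 683 genes that average several probes. A gene entered the test if 8 or more arrays had a detection p below 0.01 for it, which kept 10488 genes and left out 11304. The 2-sided test was lmFit and eBayes with a trend, and genes were called at a Benjamini-Hochberg adjusted p below 0.05. The offset draws differences of dim genes toward no change. The test was checked on simulated data. Relations used 2-sided permutation tests: 100000 resamples in air rats, exact enumeration (40320 orders) in silica rats, adjusted over the 36 tests. An adjusted p of 0.00036 rests on the smallest p that these resamples can give. Gene names were updated through RefSeq (GRCr8): 9918 matched a current symbol, 4817 a synonym and 1586 an identifier, and 5471 were kept.

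Slc26a4 and the gene lists were chosen with earlier results of these data known. Named genes were the Slc26 family, the called list members of smallest p (up to 4, or the 1 of smallest p), the 21 chosen genes and the top 6, 6 and 8 by r in air rats, in silica rats and by the smaller r, without placeholder names; a few are not reported here. Alternatives changed the background correction, scaling, offset, filter, source table, control rats, blocks and replicates. Slides and scan dates were not given in the sources used here.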

Additional observations from a re-analysis of the deposited data

Results flagged for a closer look

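In 30 groups of 8 silica rats or of 4 air rats, an array's distance from the others was examined, and 3 arrays stood apart. Chance sets about 1 in 20 such groups apart. Slc26a4 in silica rat 82, at 9.6032 log2 units, lay below the other silica rats at 10.15 to 10.54. Akr1c3 (listed as AKR1C18) in the same rat, at 5.73152, lay below the others at 6.24 to 6.70. Noxo1 in silica rat 84, at 9.6152, lay above the others at 8.83 to 9.11.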

How the results depend on the processing

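Silica minus air for Slc26a4 was positive under every alternative run, from 2.36 (the authors' log2 table) to 3.14 (air rats 105 to 108 only), and from 2.74 to 3.05 leaving out 1 rat at a time. The SD among air rats was 0.47 with limma's default call and 0.59 in the authors' table, and 0.784 to 0.998 leaving out 1 rat. The SD among silica rats was 0.14 to 0.31 leaving out 1 rat, lowest without rat 82. Genes called numbered 1388 with median scaling, 648 against air rats 89 to 92 only and 1539 with the replicate block, against 2566. Different list genes called were 27 against air rats 89 to 92 only, against 42. Genes called within air were 6 without the 2 arrays farthest from the median, against 13. Within silica 0 were called on r by exact permutation with median scaling and 0 without rat 82, against 1 called. At an unadjusted p under 0.05 there was 1 each time, against 2. Without rat 82, 5 of the 8 most alike genes remained, 2408 genes were called and 42 list genes were called. Silica rats share replicate numbers 1 to 8 with air rats, but only 1 of 8 pairs correlated above 0.1 (r from -0.228 to 0.163). These correlations gave no sign that the numbers pair the rats, but they cannot exclude a pairing. With the replicate block the difference of Slc26a4 was 2.80. Causes of these shifts were not tested. On dim arrays such as that of rat 108, at 1.46 times the control mean, the background correction limits the precision.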
